A study of Mus musculus with 12 samples.

Results

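The genes described here are 9 components of transforming growth factor beta (TGF-beta) signalling in mouse liver: the ligands Tgfb1, Tgfb2 and Tgfb3, the latency protein Ltbp1 and the activator Thbs1, the receptors Tgfbr1 and Tgfbr2, and the response and feedback genes Smad7 and Bambi. They were taken by symbol from the deposited table, where they held 29 of 169430 transcripts, and their FPKM values (fragments scaled by transcript length and library size) were summed per gene and liver. They are 9 of 24296 gene symbols in the table. TGF-beta is secreted in a latent form, bound through its own propeptide to a latent TGF-beta binding protein that anchors it in the matrix, and must be released before it can bind. The active ligand joins type II and type I receptors, which phosphorylate Smad2 and Smad3, and these enter the nucleus with Smad4. In the injured liver this pathway is known for driving stellate cells to become collagen-producing myofibroblasts.

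The study asked whether phloridzin, a plant flavonoid glycoside, changes liver fibrosis caused by carbon tetrachloride (CCl4), a solvent that kills hepatocytes around the central veins. Livers of C57/BL6N mice were sequenced in 4 groups of 3. The control group carried the treatment label WT, with no CCl4 named, and the model group was injected with CCl4 in olive oil at 5 mL/kg, 2 times per week for 8 weeks. The 2 drug groups received the same CCl4 and were treated from week 5 on, the silibinin group with a milk thistle flavonolignan used for liver disease and the phloridzin high-dose group with phloridzin at the highest dose of the study. Whether control mice received the oil alone is not given in the sources used here. The toxin therefore continued throughout drug treatment, and drug and toxin effects were read in the same livers. Library sizes recovered from the FPKM steps ranged from 83.7 M fragments in model liver 1 to 110.9 M in silibinin liver 2, with M for mega. The mean correlation of a liver with its own group was lowest in phloridzin liver 1 (0.9199) and highest in silibinin liver 1 (0.952), and no liver was left out. A gene passed at an adjusted p under 0.05 in limma over 13158 genes, and was called DE when its log2 fold change was also above 1 or below -1. The study used this cutoff too, but on fold changes from another tool, whereas here it was applied on the log2(FPKM + 1) scale.

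The tissue label was checked with 12 hepatocyte markers. All 12 were detected, none was at 0, and their summed level was 28745 FPKM in the control group and 27686 FPKM in the model group, with Alb the most abundant. Alb alone went from 12700.0 to 19098 FPKM, and the other 11 markers summed to 16045 ± 2223 FPKM in the control group and 8588 ± 557 FPKM in the model group (SD, n = 3), without overlap between livers. The median log2 fold change of the 12 was -0.28, and that of all genes was 0.34.

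Compared with the control group, 8 of the 9 genes were higher in the model group and passed, against 31.1% of all genes tested that passed as higher and 34.9% that passed in either direction. Tgfbr1 was the exception. Of the 7 genes with a control mean of at least 0.5 FPKM, the filter of the test, 6 passed, against 29.0% of all such genes that passed as higher. The median log2 fold change of the 9 genes was 0.95, and that of all genes was 0.34, so changes are also given relative to that median. After scaling each liver by its median ratio, which brings the median of all genes to 0.01, 6 of the 9 passed, all as higher, against 25.0% of all genes and 13.2% as higher. In 8 of the 9 genes the model livers lay wholly above the control livers, which was true in either direction of 52.0% of all genes. Thbs1, Smad7 and Tgfb1 were DE on the log2(FPKM + 1) scale, 3 of 9 against 10.5% of all genes. With voom on the recovered fragments, chosen after seeing the data, the log2 fold changes of Tgfb2 (2.85), Tgfb3 (2.46), Ltbp1 (1.49) and Bambi (1.01) were above 1 as well.

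**Figure D1:**
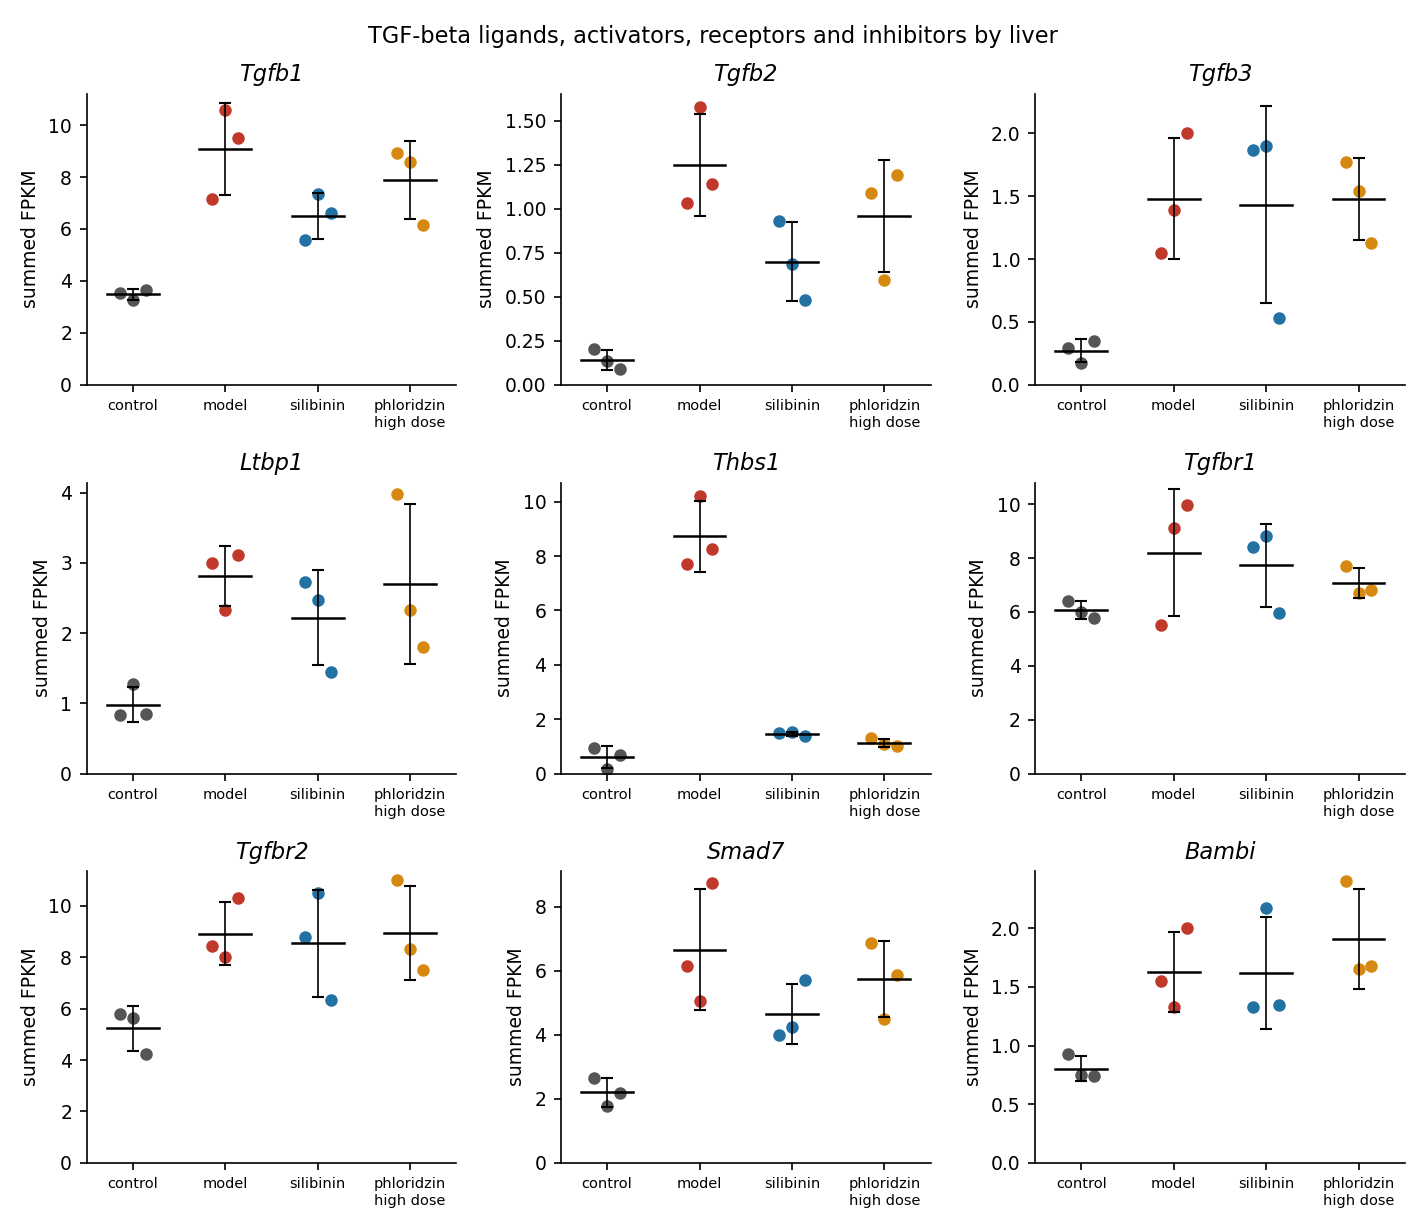
Summed FPKM of the 9 genes in each of the 12 livers, with livers 1 to 3 from left to right in each group, the group mean as a horizontal bar and the SD as a vertical bar. In Thbs1 the model livers stand at 7.69 to 10.2 FPKM and every other liver at or below 1.54 FPKM, whereas in the other panels at least 1 liver of the drug groups lies within the range of the model livers, and in Tgfbr2, Bambi and Ltbp1 some lie above it.

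Tgfb1 (chr7:25687002-25705077, plus strand, GRCm38) encodes the TGF-beta isoform most studied in fibrosis, made by macrophages, platelets and many other cells. Its summed FPKM in the control livers was 3.53, 3.26 and 3.65, and in the model livers 7.16, 10.6 and 9.49. The silibinin livers had 5.56, 7.34 and 6.62 FPKM, and the phloridzin livers 8.93, 8.57 and 6.16 FPKM. All 9 livers given CCl4 were above all control livers, and silibinin liver 2 and both higher phloridzin livers lay within the range of the model livers. The model mean of 9.08 ± 1.76 FPKM (SD, n = 3) was 2.61 times the control mean of 3.48 ± 0.201 FPKM. The log2 fold change was 1.15 (standard error 0.17, limma adjusted p = 0.00086), or 0.82 above the median of all genes.

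Tgfb2 (chr1:186622792-186705989, minus strand) and Tgfb3 (chr12:86056745-86079041, minus strand) encode the isoforms best known from development. Tgfb2 stood at 0.201, 0.137 and 0.0874 FPKM in the control livers and at 1.03, 1.58 and 1.14 FPKM in the model livers. Its silibinin values were 0.928, 0.687 and 0.479 FPKM, and its phloridzin values 1.09, 0.594 and 1.19 FPKM. The control livers were lowest, the silibinin livers were all below the model livers, and the phloridzin sums spread over both ranges. In phloridzin liver 3 most of the sum came from a retained intron, ENSMUST00000194960 (0.769 FPKM). The main coding transcript, ENSMUST00000045288, was at 0.846, 1.03 and 0.917 FPKM in the model livers and at 0.595, 0.573 and 0.334 FPKM in the phloridzin livers, without overlap. The gene was supported by 49 to 108 fragments in each control liver, 372 to 571 in each model liver, 270 to 323 in each silibinin liver and 244 to 342 in each phloridzin liver, so by fragments both drug groups lay below the model livers. Both genes had control means under the filter of 0.5 FPKM, so they entered the test through their levels in the CCl4 groups and had to differ from the control group in some measure.

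Tgfb3 was at 0.295, 0.172 and 0.348 FPKM in the control livers and at 1.05, 1.39 and 2.00 FPKM in the model livers. With silibinin it was at 1.87, 1.90 and 0.532 FPKM, and with phloridzin at 1.77, 1.54 and 1.13 FPKM. Silibinin liver 3 had less Tgfb3 than any other CCl4 liver, and the rest of the drug livers lay inside the model range. Against the control group, CCl4 alone gave a log2 fold change of 0.97 for Tgfb2 (limma adjusted p = 0.0013) and 0.95 for Tgfb3 (limma adjusted p = 0.013). These values lie on the log2(FPKM + 1) scale, which understates the change of such low genes: on the FPKM scale the ratio of means was 8.80 for Tgfb2 and 5.44 for Tgfb3.

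Per kilobase, Tgfb1 was the most abundant ligand transcript in every group, and the mean level of Tgfb3 exceeded that of Tgfb2 in each group. In the model group those means, 1.48 ± 0.478 FPKM and 1.25 ± 0.291 FPKM, differed by less than their spread.

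Ltbp1 (chr17:75005568-75392512, plus strand) encodes a latent TGF-beta binding protein, which holds the latent complex in the extracellular matrix. Its sum was 0.831, 1.28 and 0.844 FPKM in the control livers and 3.00, 2.33 and 3.11 FPKM in the model livers. The silibinin livers showed 2.73, 2.47 and 1.45 FPKM, and the phloridzin livers 3.98, 2.33 and 1.80 FPKM. Every CCl4 liver exceeded every control liver, and the drug livers spread from below to above the model livers. Model against control gave 0.94 on the log2 scale (standard error 0.23, limma adjusted p = 0.01).

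The gene has 7 transcripts in the table, of which 4 are protein-coding, and these begin at 2 separate start sites. ENSMUST00000001927, with 34 exons, begins at the upstream start (chr17:75005568), while ENSMUST00000112514, ENSMUST00000112516 and ENSMUST00000135447, with 30, 30 and 21 exons, begin at the internal start (chr17:75178911 for the first and chr17:75178810 for the others). The split by start site was chosen after the values were seen. The long form from the upstream start was at 0.586, 0.275 and 0.733 FPKM in the control livers and at 0.588, 0.399 and 0.645 FPKM in the model livers. The forms from the internal start summed to 0.0742, 0.661 and 0.0112 FPKM in the control livers and to 2.21, 1.73 and 2.35 FPKM in the model livers. The model and control livers overlapped for the long form and were fully separate for the short forms, although in control liver 2 the 21-exon transcript ENSMUST00000135447 alone gave 0.515 FPKM.

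In the silibinin livers the internal start gave 2.16, 1.48 and 0.568 FPKM, and in the phloridzin livers 2.90, 1.46 and 1.13 FPKM. The upstream start gave 0.400, 0.800 and 0.677 FPKM in the silibinin livers and 0.769, 0.655 and 0.448 FPKM in the phloridzin livers. The ranges of the long form overlapped among all 4 groups, whereas the short forms had their lowest mean in the control group and varied widely under either drug. The share of coding Ltbp1 FPKM from the internal start was 79.0, 81.3 and 78.5% in the model livers and 11.2, 70.6 and 1.5% in the control livers. The control mean of 27.8 ± 37.4% (SD, n = 3) rests on control liver 2, without which it was 6.37%, and the model mean was 79.6 ± 1.49%. In a fit over 26908 single transcripts, ENSMUST00000112514 was higher in the model group (log2 fold change 1.47, limma adjusted p = 0.0061), where 13.9% of transcripts passed, and ENSMUST00000001927 was not called (log2 fold change 0.02, limma adjusted p = 0.95). ENSMUST00000112514 was at 0.146 FPKM or less in the control livers, so it passed the filter of 0.5 FPKM through the CCl4 groups and had to differ in some measure. Neither passed against the model group with silibinin, where 4.57% of transcripts passed, nor with phloridzin, where 4.27% passed. The forms share most of their exons, and how the authors divided shared fragments between them is not given in the sources used here.

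Because the forms differ in start site, the 250 bases before each RefSeq start are shown (RefSeq, GRCm38.p6, plus strand, 5′ to 3′), with matches to the letters CAGAC, or their reverse complement, known as the Smad-binding box, in capitals.
Ltbp1 upstream start, chr17:75005279-75005528: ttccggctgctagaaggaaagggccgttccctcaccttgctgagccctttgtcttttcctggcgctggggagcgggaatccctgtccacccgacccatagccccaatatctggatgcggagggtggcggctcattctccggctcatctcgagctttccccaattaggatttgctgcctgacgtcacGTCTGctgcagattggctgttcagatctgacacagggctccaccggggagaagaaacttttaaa
Ltbp1 internal start, chr17:75178531-75178780: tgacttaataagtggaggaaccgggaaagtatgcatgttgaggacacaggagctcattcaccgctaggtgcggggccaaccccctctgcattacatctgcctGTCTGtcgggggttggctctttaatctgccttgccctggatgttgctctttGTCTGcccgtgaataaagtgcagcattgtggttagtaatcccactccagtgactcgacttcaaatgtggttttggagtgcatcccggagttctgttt
The box occurred 1 time before the upstream start and 2 times before the internal start, and 42.2% of all 32851 promoters in the table hold it in the same window. Neither window held the AP-1 letters TGANTCA (6.75% of promoters), the GC box GGGCGG (32.7%) or the TATA box TATAAA (12.4%), all searched on both strands. GC content was 56.8% before the upstream start and 50.8% before the internal start, and the median of all promoters was 52.4%. The RefSeq starts lie 39 bases upstream of the start of ENSMUST00000001927 and 29 bases upstream of that of ENSMUST00000112516 and ENSMUST00000135447, and ENSMUST00000112514, which carries most of the FPKM from the internal start in the model livers, begins further downstream. Promoter entries existed for 5 of the 9 genes.

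**Figure D2:**
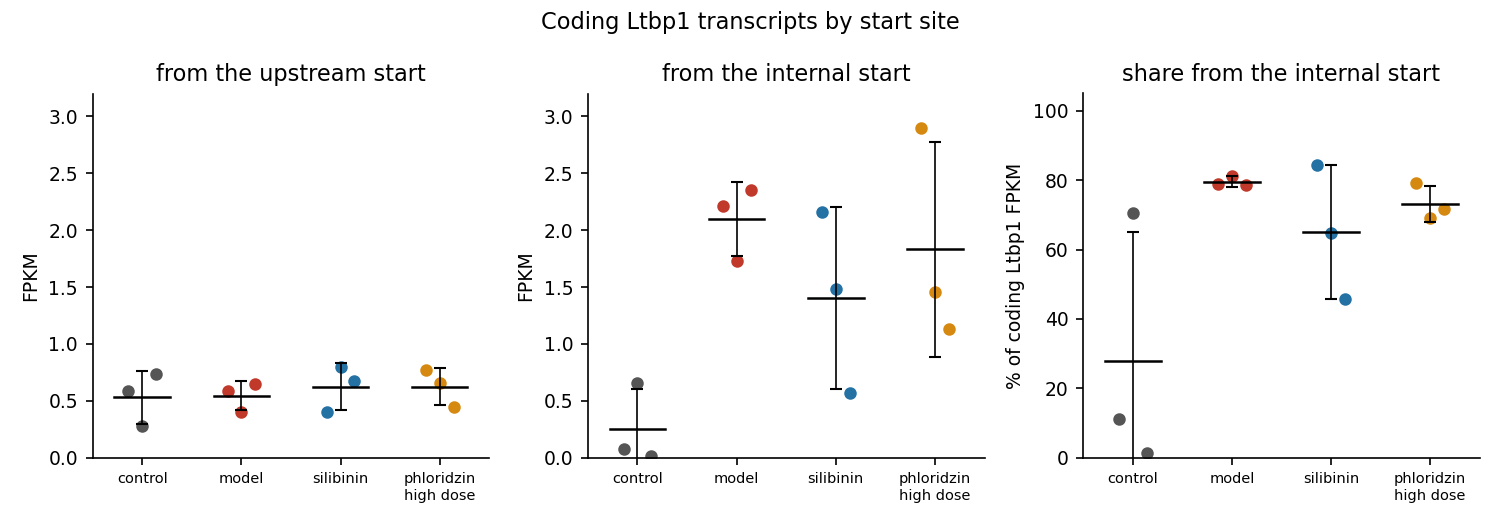
FPKM of coding Ltbp1 transcripts from the upstream start and from the internal start, and the internal start's share in percent, in each of the 12 livers (points), with group means and SD (bars). The upstream form stays between 0.275 and 0.800 FPKM in all livers, while the internal forms lie between 1.73 and 2.35 FPKM in the model livers and at or below 0.661 FPKM in the control livers.

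Thbs1 (chr2:118111876-118127133, plus strand) encodes thrombospondin 1, a matrix glycoprotein of platelets, macrophages and stromal cells that can release active TGF-beta from its latent complex. Its summed FPKM in the control livers was 0.954, 0.178 and 0.707, and in the model livers 7.69, 10.2 and 8.27. In the silibinin livers it was 1.48, 1.54 and 1.37 FPKM, and in the phloridzin livers 1.31, 1.08 and 1.03 FPKM. By these sums the groups formed 4 separate ranges, with the model livers far above the rest, the silibinin livers next, then the phloridzin livers and then the control livers. The drug groups overlapped by the coding transcript ENSMUST00000039559, at 1.465, 1.496 and 1.078 FPKM with silibinin and 1.296, 0.9323 and 1.018 FPKM with phloridzin. They also overlapped by fragments, with 715 to 973 in each silibinin liver and 581 to 775 in each phloridzin liver. The model mean was 14.2 times the control mean, and the log2 fold change was 2.61 (standard error 0.18, limma adjusted p = 1.4e-05), the largest of the 9 genes. Between 3525 and 6016 fragments supported the gene in each model liver and 113 to 516 in each control liver.

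Tgfbr1 (chr4:47353222-47414931, plus strand) encodes the type I receptor kinase ALK5, and Tgfbr2 (chr9:116084293-116175360, minus strand) the type II receptor that binds the ligand first. Tgfbr1 was at 6.42, 5.99 and 5.77 FPKM in the control livers and at 5.53, 9.12 and 9.95 FPKM in the model livers. The silibinin livers had 8.39, 8.83 and 5.97 FPKM and the phloridzin livers 7.70, 6.70 and 6.81 FPKM. Model liver 1 lay below every control liver and the other model livers lay above, so the groups overlapped. Model against control gave a log2 fold change of 0.35 (95% interval -0.09 to 0.79, limma adjusted p = 0.19), which is 0.01 from the median of all genes and turned to -0.04 under median-ratio scaling. Without model liver 1 it was 0.58 (limma adjusted p = 0.027).

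Tgfbr2 was at 5.80, 5.64 and 4.24 FPKM in the control livers and at 8.45, 8.02 and 10.3 FPKM in the model livers. In the silibinin livers it was at 8.78, 10.5 and 6.35 FPKM, and in the phloridzin livers at 11.0, 8.31 and 7.52 FPKM. All CCl4 livers stood above all control livers, and silibinin liver 3 came closest to them. For the model group this was a log2 fold change of 0.67 (SE 0.20, limma adjusted p = 0.023), and only 0.28 (limma adjusted p = 0.2) after median-ratio scaling. The call was also lost without control liver 3 (0.55, limma adjusted p = 0.081) or model liver 3 (0.58, limma adjusted p = 0.079).

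Smad7 (chr18:75367529-75395935, plus strand) is induced by Smad3 and blocks the type I receptor in negative feedback. It was at 2.66, 1.77 and 2.17 FPKM in the control livers and at 6.16, 5.07 and 8.76 FPKM in the model livers. The silibinin livers had 3.99, 4.26 and 5.71 FPKM and the phloridzin livers 6.88, 4.49 and 5.86 FPKM. No CCl4 liver reached down to the control range, and each drug group overlapped with the model group. Its log2 fold change under CCl4 alone was 1.24 (SE 0.21, limma adjusted p = 0.0016), the largest of the 9 after Thbs1 on the log2(FPKM + 1) scale. Its ratio of means was 3.03, below those of Tgfb2 and Tgfb3.

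Bambi (chr18:3507923-3516404, plus strand) encodes a pseudoreceptor without a kinase domain that dampens TGF-beta signals. It was at 0.926, 0.745 and 0.737 FPKM in the control livers and at 1.55, 1.33 and 2.00 FPKM in the model livers. With silibinin it was at 1.33, 2.17 and 1.35 FPKM, and with phloridzin at 2.40, 1.65 and 1.68 FPKM. All CCl4 livers exceeded all control livers, and each drug group overlapped with the model group. Under CCl4 alone the log2 fold change was 0.54 (limma adjusted p = 0.027), 0.20 above the median of all genes, and 0.30 (limma adjusted p = 0.14) after median-ratio scaling. Leaving out control liver 2 or 3, or model liver 1 or 3, also ended the call, with log2 fold changes of 0.52, 0.51, 0.55 and 0.44 and limma adjusted p of 0.075, 0.074, 0.055 and 0.094, as did the test with no filter on low genes (0.54, limma adjusted p = 0.052). The pseudogene Bambi-ps1 was listed at 0 to 0.364 FPKM, and reads could be divided between both copies, so the level of Bambi is uncertain to that extent.

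To see what each drug changed in fibrotic livers, each drug group was compared with the model group. These comparisons share the model livers. Thbs1 was the only one of the 9 genes that passed, and it was lower under either drug, while voom with limma on the recovered fragments, chosen after seeing the data, also called Tgfb2 as lower with silibinin. With silibinin, 1 of 9 passed, against 14.1% of all genes and 11.4% as lower. With phloridzin it was also 1 of 9, against 12.9% of all genes and 10.4% as lower.

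Thbs1 fell by 1.97 on the log2 scale with silibinin (standard error 0.18, limma adjusted p = 0.00011) and by 2.18 with phloridzin (standard error 0.18, limma adjusted p = 6.1e-05), and it was lower in 3 of 3 livers of each drug group. The model mean of 8.72 ± 1.32 FPKM was 5.97 times the silibinin mean of 1.46 ± 0.0864 FPKM and 7.65 times the phloridzin mean of 1.14 ± 0.149 FPKM (SD, n = 3). The fall passed under every alternative tried, with log2 fold changes from -2.65 to -1.78 for silibinin and from -2.97 to -2.00 for phloridzin.

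The other 8 genes had log2 fold changes between -0.42 and -0.01 with silibinin and between -0.20 and 0.15 with phloridzin, and the medians of all genes were -0.15 and -0.11. Those of Tgfb3, Tgfbr1, Tgfbr2 and Bambi with silibinin, and of Tgfbr2 and Ltbp1 with phloridzin, changed sign under median-ratio scaling, so no direction is given for them. Tgfb1 and Smad7 had the lowest values with silibinin, both -0.42 (limma adjusted p = 0.13 and 0.21), followed by Tgfb2 at -0.40 (limma adjusted p = 0.11). With phloridzin Tgfb2 had -0.20 by its sum, -0.37 by its top transcript only (limma adjusted p = 0.061) and -0.77 with voom on fragments (limma adjusted p = 0.055), and over all alternatives -0.77 to -0.06, with a limma adjusted p of 0.055 to 0.85. The 95% intervals for Tgfb1 were -0.80 to -0.04 with silibinin and -0.56 to 0.20 with phloridzin. The drug and model livers were separate in 2 of 9 genes with silibinin (Thbs1 and Tgfb2), against 36.7% of all genes, and in 1 of 9 with phloridzin (Thbs1), against 30.6%.

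**Figure D3:**
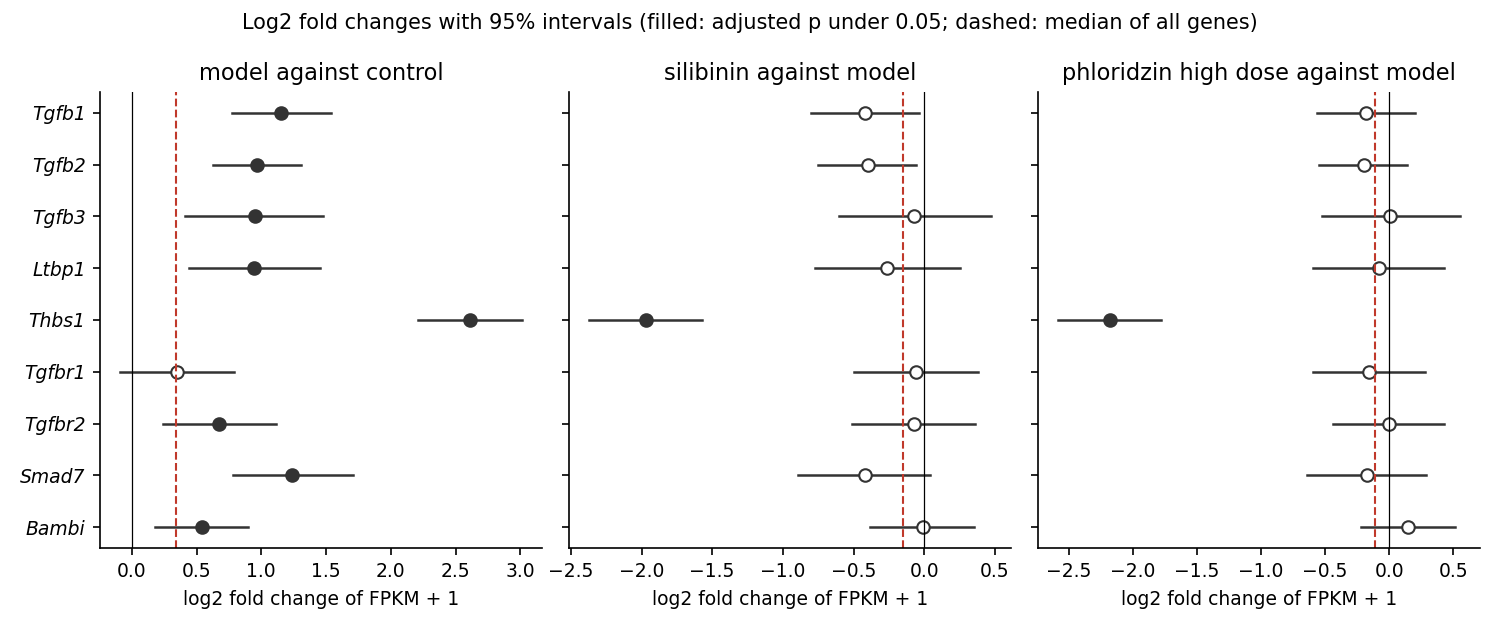
Log2 fold changes of the 9 genes on the log2(FPKM + 1) scale in 3 comparisons, with 95% intervals as lines, filled points for an adjusted p under 0.05 and a dashed line at the median of all genes (0.34, -0.15 and -0.11). In the drug comparisons Thbs1 stands alone at -1.97 and -2.18, and the other genes lie between -0.42 and 0.15.

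The drug groups were also set against the control group, with the control livers shared by these comparisons and by that of the model group. With silibinin, Tgfb1 passed, 1 of 9 against 5.02% of all genes and 4.59% as higher (log2 fold change 0.74, limma adjusted p = 0.038). That call was lost when any single control or silibinin liver was left out, with a limma adjusted p of 0.068 to 0.15. The share of all genes that passed was then 1.48, 1.65 and 2.07% without control liver 1, 2 or 3 and 1.02, 1.06 and 6.13% without silibinin liver 1, 2 or 3. With phloridzin, 6 of 9 passed as higher, against 7.99% of all genes and 7.51% as higher: Tgfb1, Tgfb2, Tgfb3, Smad7, Bambi and Ltbp1, with Tgfb2 and Tgfb3 tested through the CCl4 groups. Their log2 fold changes ran from 0.68 for Bambi to 1.07 for Smad7, and the count fell to between 1 and 3 when any control liver, phloridzin liver 1 or phloridzin liver 2 was left out. The share of all genes that passed was also lower then, at 2.79, 3.01 and 3.56% without control liver 1, 2 or 3 and 4.23 and 4.56% without phloridzin liver 1 or 2, and it was 9.74% without phloridzin liver 3.

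Against the control group, Thbs1 had a log2 fold change of 0.64 with silibinin (95% interval 0.24 to 1.04, limma adjusted p = 0.071) and of 0.44 with phloridzin (95% interval 0.04 to 0.84, limma adjusted p = 0.17). All 3 livers of each drug group were above all control livers. The phloridzin livers were so for Tgfbr1 too, at a limma adjusted p of 0.61. The share of all genes separated in this way was not counted for these comparisons.

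Between the drugs, limma called 0 of the 9 genes and 3 of 13158 genes (0.0228%). At an unadjusted p under 0.05 there were 0 of the 9 and 494 of all genes (3.75%), and voom with limma on the recovered fragments also called 0 of the 9. The log2 fold changes of phloridzin against silibinin lay between -0.20 for Thbs1 (95% interval -0.60 to 0.20) and 0.25 for Smad7 (95% interval -0.21 to 0.72). Both intervals include 0 and differences larger than these estimates.

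Around the 9 genes, 7 lists of other pathway genes were counted in the same fit. Their counts stand against 31.1% of all genes that passed as higher in the model group, and 11.4% and 10.4% that passed as lower with silibinin and phloridzin. The lists were not counted after median-ratio scaling, under which 13.2% of all genes passed as higher in the model group. Where list genes had control means under 0.5 FPKM and so needed the CCl4 groups to pass the filter, the count without them is given too, to be set against 29.0%. Of 22 genes of latency and activation, 19 were tested, and in the model group 14 passed as higher and 1 as lower, with a median log2 fold change of 0.86. Mmp2, a gelatinase, went from 0.776 ± 0.226 FPKM in the control group to 9.38 ± 0.591 FPKM in the model group (log2 fold change 2.55, limma adjusted p = 0.00013). Ltbp2, a relative of Ltbp1 in elastic fibres, went from 0.184 ± 0.0370 to 4.98 ± 0.798 FPKM (2.33, limma adjusted p = 0.00025). The plasminogen activators Plat and Plau had log2 fold changes of 1.84 and 1.70. Ltbp2 and Plat (control mean 0.233 FPKM) entered the test through their levels in the CCl4 groups and had to differ in some measure, and of the other 17 genes 12 passed as higher. With each drug 3 of the 19 passed as lower and none as higher, among them Plau (-0.98 with silibinin and -0.77 with phloridzin) and the crosslinking enzyme Tgm2 (-0.76 and -0.73). Mmp2 and Ltbp2 were not among them, with 8.53 and 3.76 FPKM in the silibinin group and 7.76 and 4.78 FPKM in the phloridzin group.

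Of 12 other receptors and co-receptors of the family 9 were tested and 3 passed as higher in the model group, a share near the 31.1% of all genes, with a median of 0.27, which is below that of all genes. They were Acvrl1, the endothelial type I receptor ALK1 (1.05 to 3.43 FPKM, log2 fold change 1.10), the co-receptor Tgfbr3 (3.60 to 6.43 FPKM, 0.70) and Acvr1 (5.56 to 7.57 FPKM, 0.39). Acvrl1 passed as lower with silibinin (-0.52, limma adjusted p = 0.049), 1 of 9, and with phloridzin 0 of 9 passed. Of 8 Smad transducers 3 passed as higher in the model group, again near the share of all genes, with a median of 0.34, equal to that of all genes. Smad3, the main carrier of the TGF-beta signal, went from 4.18 ± 0.272 to 8.66 ± 0.336 FPKM (log2 fold change 0.90, limma adjusted p = 0.00021), Smad1 of the BMP branch had 0.75, and Trim33, a Smad-binding ubiquitin ligase, 0.70. With each drug 2 of 8 passed as lower, Smad1 and Smad3 with silibinin (-0.50 and -0.41) and Trim33 and Smad3 with phloridzin (-0.49 and -0.42).

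Among 24 inhibitors of the pathway 15 were tested, and 8 passed as higher in the model group, with a median of 0.60. Tgif1, a corepressor of Smad2 and Smad3, went from 5.35 ± 0.810 to 14.3 ± 0.526 FPKM (log2 fold change 1.27, limma adjusted p = 0.00029). Pmepa1, a TGF-beta target that sequesters Smads, had 0.82, Smad6 0.80 and Vasn, a ligand trap, 0.67. Pmepa1 (control mean 0.187 FPKM) and 1 other gene entered the test through the CCl4 groups, and of the remaining 13 genes 6 passed as higher. With each drug 2 of 15 passed as lower, and these were Tgif1 (-0.97 and -0.79) and Vasn (-0.79 and -0.75).

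Transcripts that TGF-beta is known to induce numbered 36, of which 27 were tested. In the model group 21 passed as higher and 0 as lower, with a median of 1.3, and of the 21 with a control mean of at least 0.5 FPKM 15 passed as higher. The fibrillar collagens led: Col1a1 went from 1.40 ± 0.321 to 48.5 ± 12.7 FPKM (log2 fold change 4.35, limma adjusted p = 0.00042) and Col3a1 from 3.66 ± 0.397 to 61.6 ± 7.44 FPKM (3.75, limma adjusted p = 0.00039). Spp1, which encodes osteopontin, had 1.94. With each drug 6 of 27 passed as lower, with medians of -0.49 and -0.51. The cell cycle inhibitor Cdkn1a was among them, with -1.28 and -1.50. Col1a1 was at 39.0 ± 19.7 FPKM with silibinin and 41.4 ± 37.9 FPKM with phloridzin, and it did not pass against the model group (limma adjusted p = 0.66 and 0.57).

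Of 14 genes listed as BMP and activin ligands, 12 were tested and 5 passed as higher in the model group (5 of the 11 with a control mean of at least 0.5 FPKM), with a median of 0.30. The list also holds Bmp1, which encodes a procollagen proteinase and no ligand, and which did not pass in the model group (-0.66, limma adjusted p = 0.21) or with either drug. The stress-induced Gdf15 went from 2.77 ± 0.300 to 12.2 ± 3.19 FPKM (log2 fold change 1.78, limma adjusted p = 0.00071), and the activin subunit genes Inhbc and Inhbb had 0.66 and 0.59 and Gdf2, the gene of an ALK1 ligand, 0.57. With silibinin 3 of 12 passed as lower, led by Gdf15 (-1.68) and Inhbb (-0.96), and with phloridzin 4 of 12, led by Gdf15 (-1.87) and the hepatocyte activin subunit gene Inhbe (-1.44). All 8 tested BMP response transcripts, of 10, passed as higher in the model group, with a median of 0.99. Id1 (2.42) and Id3 (1.91) encode inhibitors of helix-loop-helix factors, and Hamp (1.18) and Hamp2 (2.38) encode hepcidins, whose near-identical sequences make their separate levels uncertain. Hamp, Smad-driven in hepatocytes, fell by 1.70 with silibinin and did not pass with phloridzin (-1.01, limma adjusted p = 0.056). Hamp2 passed with neither drug (0.28 with silibinin and -0.56 with phloridzin). Id3 fell by 0.79 with silibinin and by 0.90 with phloridzin. In these lists 0 genes passed as higher with either drug, where few of all genes did, 345 of 13158 with silibinin and 329 of 13158 with phloridzin. Between the drugs 0 list genes passed, against 3 of 13158 genes.

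**Figure D4:**
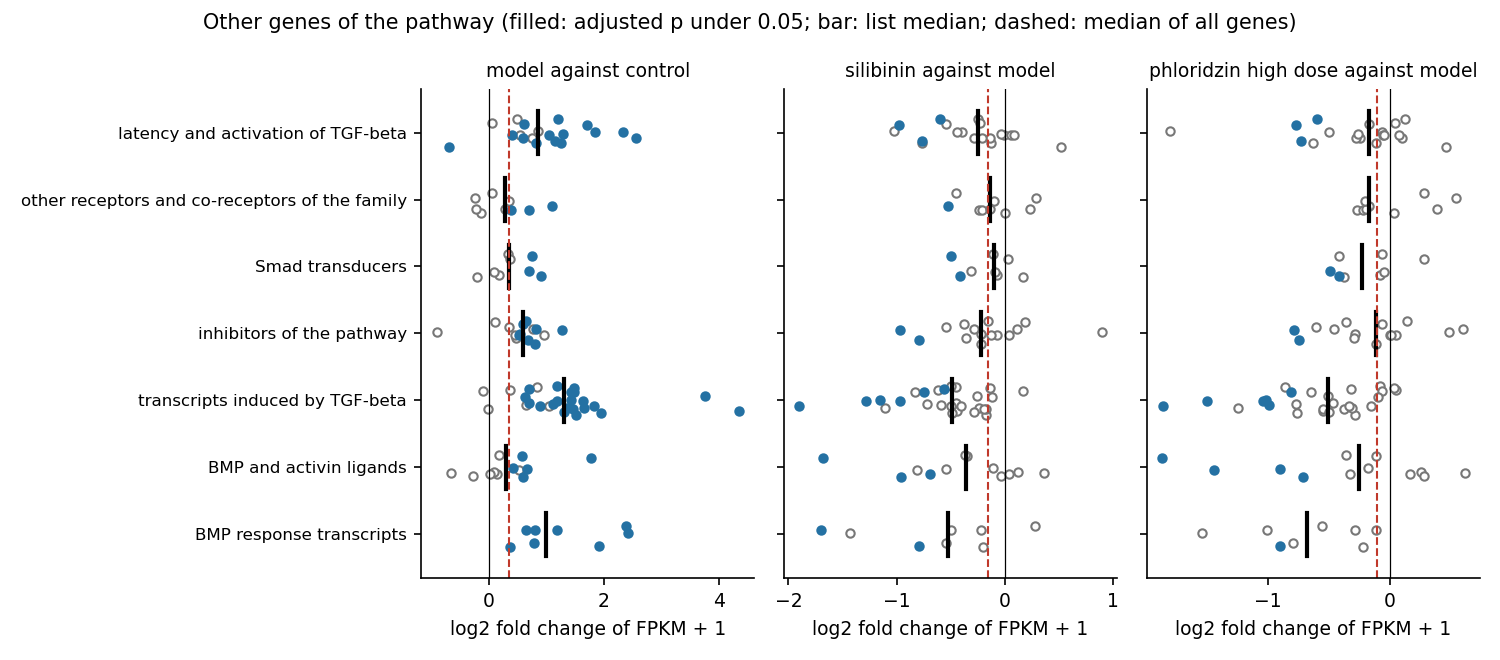
Log2 fold changes on the log2(FPKM + 1) scale of the tested genes in 7 pathway lists, in 3 comparisons, with 1 point per gene (filled at an adjusted p under 0.05), a black bar at each list's median and a dashed line at the median of all genes. In the model group the transcripts induced by TGF-beta have the highest list median (1.3). In both drug comparisons filled points lie below 0 only. Over all genes, 18.7% of passing calls with silibinin and 19.5% with phloridzin were higher.

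Markers of other liver cells were counted in the same way, against the same shares of all genes. In bulk liver, fewer or more cells of a type and less or more RNA per cell cannot be told apart. Of 20 stellate cell and myofibroblast markers 19 were tested and 13 passed as higher in the model group (9 of the 15 with a control mean of at least 0.5 FPKM), and their summed level was 125, 132 and 145 FPKM in the control livers and 327, 334 and 352 FPKM in the model livers. It was 314, 365 and 182 FPKM in the silibinin livers and 417, 288 and 241 FPKM in the phloridzin livers, with Dcn the most abundant gene. Model and control livers were separate, the drug livers were on both sides of the model livers, and 7 of these 20 markers are also among the transcripts induced by TGF-beta. Of 15 macrophage markers, 8 passed as higher (7 of the 13 with a control mean of at least 0.5 FPKM), and their sum, led by Lyz2, was 153, 256 and 217 FPKM in the control livers and 412, 652 and 560.5 FPKM in the model livers. The silibinin livers had 491, 614 and 465 FPKM and the phloridzin livers 768, 728 and 404 FPKM, overlapping with the model livers. With either drug 0 of 15 macrophage markers passed against the model group, as did 0 of 19 stellate cell markers with silibinin and 1 of 19 with phloridzin.

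Platelets carry much thrombospondin 1 and TGF-beta 1. Of 9 platelet and megakaryocyte markers 4 were tested and 1 passed as higher in the model group, and with either drug 0 of 4 passed. Their sum was 6.13, 3.99 and 4.84 FPKM in the control livers, 11.7, 7.12 and 9.93 FPKM in the model livers, 7.57, 6.33 and 4.87 FPKM in the silibinin livers and 10.7, 6.97 and 5.53 FPKM in the phloridzin livers. The model livers were above the control livers and overlapped with each drug group, Pf4 was the most abundant gene at 4.82 FPKM in the model group, and Gp6 was near 0. Endothelial markers (12 tested, 1 higher) summed to 98.0 to 114 FPKM in the control livers and 117 to 138 FPKM in the model livers, with Clec4g the most abundant, and to 69.3 to 137 FPKM with silibinin and 112 to 143 FPKM with phloridzin. Those of lymphocytes and neutrophils (9 of 15 tested, 2 higher, both among the 5 with a control mean of at least 0.5 FPKM), led by S100a8, summed to 12.9 to 26.6 FPKM in the control livers and 34.9 to 83.6 FPKM in the model livers, and to 17.1 to 36.0 FPKM with silibinin and 38.3 to 90.1 FPKM with phloridzin. With silibinin 1 of these 9 passed as lower, the neutrophil gene Retnlg (-1.36, limma adjusted p = 0.041), and with phloridzin 0 of 9. Cholangiocyte markers (4 of 8 tested, 2 higher), led by Spp1, stood at 13.1 to 19.5 FPKM in the control livers, 49.5 to 58.1 FPKM in the model livers, 26.5 to 51.9 FPKM with silibinin and 28.4 to 55.3 FPKM with phloridzin. Spp1, which is also among the transcripts induced by TGF-beta, made up most of each mean. It had 11.4, 45.9, 35.1 and 29.0 FPKM in the control, model, silibinin and phloridzin groups, against list means of 15.7, 53.6, 43.2 and 37.5 FPKM. Mesothelial, adipose and pancreas markers (4 of 10 tested, 2 higher, both with control means under 0.5 FPKM), led by Cela1 and with Cpa1 at 0, stood at 9.16 to 12.3 FPKM, 11.1 to 18.1 FPKM, 10.8 to 16.9 FPKM and 13.1 to 20.7 FPKM in the same order. In the endothelial, cholangiocyte, mesothelial and hepatocyte lists 0 genes passed with either drug. Of 12 hepatocyte markers 1 passed as lower in the model group. The part of these cell types in the levels of the 9 genes was not tested.

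**Figure D5:**
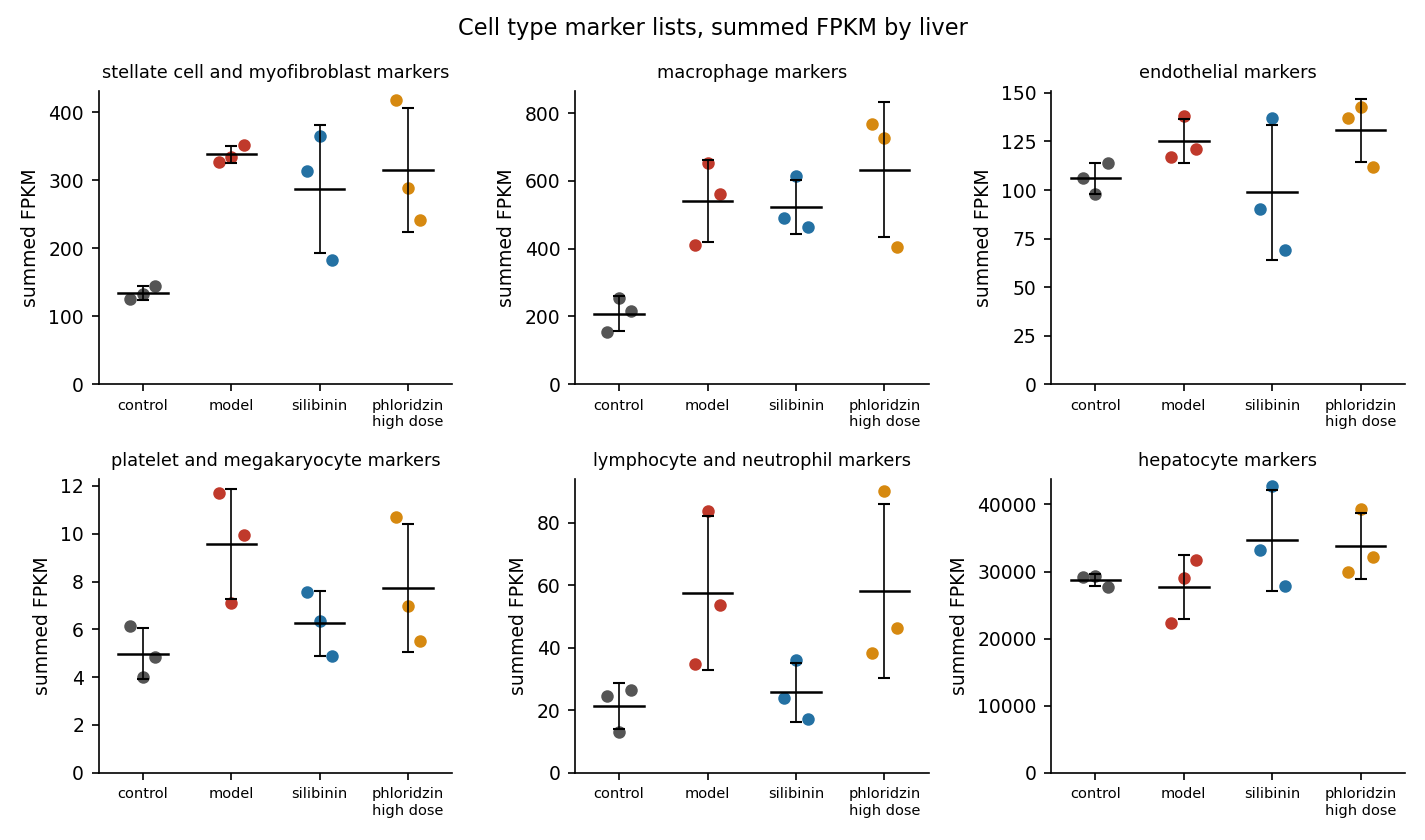
Summed FPKM of 6 marker lists in each of the 12 livers (points, livers 1 to 3 from left to right), with group means and SD (bars). Stellate cell sums rise from 125 to 145 FPKM in the control livers to 327 to 352 FPKM in the model livers, and the drug livers range from 182 to 417 FPKM.

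The genes whose values over the 12 livers were most like those of each of the 9 were taken by Pearson r of log2(FPKM + 1) among 7438 genes with a range of at least 1, as a description without a test. Thbs1 ran with Mex3c (r = 0.99), Pvr (0.99) and Cd14 (0.98), which like it were higher in the model group than in the control group and lower with either drug. Tgfb1 ran with Fmnl1 (0.99), Msn (0.98) and Plcg2 (0.98), and Ltbp1 with Il10rb (0.98), Gm36161 (0.97) and Tlr13 (0.97). For Tgfb2 the nearest were Slamf7, Glipr1 and Fabp4 (0.96, 0.95 and 0.95), for Tgfb3 Palm and Abcg1 (each 0.97), and for Tgfbr2 Arhgef16, Atp13a2 and Leprot (0.97, 0.97 and 0.96). Smad7 ran with Mthfd1l (0.95), Gm15421 (0.94) and its family member Smad6 (0.92), and Bambi with Abi3, Rps16 and Capn6 (0.96, 0.96 and 0.95). Tgfbr1 had the loosest companions, Rce1, Ifi203 and Ppp1r13b (0.88, 0.86 and 0.86). All 12 livers of the 4 groups entered each r, so differences between groups are part of it.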

How the data were processed

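Total RNA of 12 mouse livers, 3 in each group, was sequenced by the authors on an Illumina NovaSeq. The deposited table gives FPKM per transcript, made by the authors; their processing notes name HISAT2 2.1.0, StringTie 1.3.3b and build mm10, with no roles stated. Values were whole multiples of a step per transcript in 98.7 to 98.9% of low values (tolerance 0.05), which gave the library sizes. FPKM were summed per symbol, and genes with a mean of at least 0.5 FPKM were fitted as log2(FPKM + 1) with limma 3.58.1 (R 4.3.3, trend) over all 12 livers. The 6 comparisons were adjusted by Benjamini-Hochberg over 13158 genes. All 9 members passed the filter. The script was tested on simulated data. The lists have 227 entries, of which 224 were found in the table, and some genes, such as Dcn, Smad6 and Spp1, stand in several lists. Named from each list were up to 4 passing genes with the largest change in the model group and up to 2 per drug, and some genes that this rule takes are not reported here. Livers are labelled as separate samples, and each mouse gave a liver according to the study. The members and lists were chosen with earlier results of these data known. Alternatives were pseudocount, filter, scaling, transcripts used, groups in the fit, replicate block, voom and left-out livers.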

Additional observations from a re-analysis of the deposited data

Results flagged for a closer look

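Transcripts of the table without a gene symbol, which no comparison above used, lie on the same strand inside these loci, and those with a mean of at least 0.5 FPKM were compared by liver. The NONCODE transcript NONMMUT033089.2 at Smad7 had a mean of 1.76 ± 0.274 FPKM in the model group (1.86, 1.45 and 1.97 FPKM) and 0.682 ± 0.313 FPKM in the control group (0.768, 0.942 and 0.335 FPKM; SD, n = 3). Its silibinin livers had 0.831, 0.949 and 0.912 FPKM and its phloridzin livers 1.41, 0.784 and 0.789 FPKM, all below the model livers. NONMMUT071267.2 at Tgfbr2 had a mean of 0.708 ± 0.209 FPKM in the model group and 0.223 ± 0.0627 FPKM in the control group, with the drug livers between 0.278 and 0.819 FPKM. A further one, NONMMUT033087.2 at Smad7, had 0.734, 0.963 and 1.37 FPKM in the model livers and 0.45, 0.567 and 0.855 FPKM in the control livers, which overlapped. The first 2 were picked because every model liver exceeded every control liver, and neither difference was tested.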

How the results depend on the processing

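The log2 fold changes of the 9 genes were recomputed under 12 other settings and without each liver in turn, and 0 called values changed sign. With phloridzin against the model group and against silibinin, every call stood in all of them, 54 of 54 with a liver left out and 107 of 107 otherwise (Tgfb2 had no value under a filter of 1 FPKM). Among these settings, the use of Ensembl transcripts only could change no call, because no other transcripts carried a gene symbol. With silibinin against the model group 1 of 107 changed: voom on recovered fragments, chosen after seeing the data, called 2 genes, adding Tgfb2 (-0.85, limma adjusted p = 0.034). Calls over all genes did move in these comparisons. For phloridzin against model they went from 1691 to between 865 and 2077 of 13158 with a liver left out, and to 604 with only the 2 groups in the fit. For silibinin against model they went from 1849 to between 1114 and 1473, and to 1572. Against the control group, 8 of 9 model genes became 3 when a log2 fold change above 1 was also required, and 6 to 8 with a liver left out, while calls over all genes went from 4594 to 1382 and to between 3508 and 3746 of 13158. It was 7 with no filter, without Bambi (limma adjusted p = 0.052), and 6 with median-ratio scaling, without Bambi and Tgfbr2. Control livers 2 and 3 and model livers 1 and 3 decided Bambi, control liver 3 and model liver 3 Tgfbr2, and model liver 1 Tgfbr1, with the values given above.

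For silibinin against control, 1 gene became 4 with a pseudocount of 0.1, 3 with voom, and 0 with no filter, the top transcript only, median-ratio scaling or the fold rule. Calls over all genes moved too, from 661 of 13158 to 1092 of 13158, 901 of 13086, 479 of 23651, 179 of 12333, 569 of 13086 and 261 of 13158 in the same order. Leaving out a liver gave 0 to 2: 0 without silibinin liver 1 or 2 or any control liver, and 2 without silibinin liver 3, when Tgfb3 (1.18) and Tgfbr2 (0.78) passed and Tgfb1 (0.72) did not. For phloridzin against control, 6 genes became 3 with no filter or the top transcript only, 1 with only the 2 groups in the fit, 1 with the fold rule, and 1 to 6 with a liver left out: 2 without control liver 1 or 3, 1 without control liver 2 or phloridzin liver 1, and 3 without phloridzin liver 2. Calls over all genes went from 1051 of 13158 to 741 of 23651 with no filter, 313 of 12333 with the top transcript, 207 of 13158 with only the 2 groups and 398 of 13158 with the fold rule. Ltbp1 was also lost with a filter at 0.1 FPKM (0.86, limma adjusted p = 0.053) and with median-ratio scaling (0.71, limma adjusted p = 0.059), 5 genes in each, and voom added Tgfbr2 (0.88, limma adjusted p = 0.041), 7 genes. Over all genes, the share of higher among passing calls was 89.1% for model against control and 52.7% after median-ratio scaling. For silibinin against model it was 18.7% and 46.3%, for phloridzin against model 19.5% and 43.0%, for silibinin against control 91.4% and 72.9%, and for phloridzin against control 94.0% and 71.9%. The cause of these changes was not tested.

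Groups share replicate numbers, which follow the sample titles. The column names carry other numbers, and pairing by those was not tested. Each gene's group mean was taken away before livers of different groups were correlated. Livers of the same replicate number then had correlations of -0.091 to 0.101 (18 pairs), and the other pairs -0.165 to 0.146 (36 pairs). Of 12 livers, 2 correlated best with a liver of their own replicate number, so these numbers were not taken to pair livers. With the number as a replicate block the counts were 8, 1, 1, 0, 1 and 3 in place of 8, 1, 1, 0, 1 and 6, the last being phloridzin against control, where Tgfb3, Bambi and Ltbp1 no longer passed and calls over all genes went from 1051 to 819 of 13158. For silibinin against control the block called Smad7 (0.82, limma adjusted p = 0.041) and not Tgfb1 (limma adjusted p = 0.059).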
